A study of Mus musculus with 24 samples.

Results

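The genes described here are the receptors and granule proteins by which natural killer (NK) cells and cytotoxic T cells recognise and kill other cells. They were taken by symbol: the lectin-like receptor genes Klra to Klrk that carry a number, the granzyme genes Gzma to Gzmn, and Prf1 (perforin), Nkg7 and Ncr1. Of the 22180 genes that had a probe row of their own on the arrays, 35 met this rule: 23 lectin-like receptor genes or pseudogenes, Ncr1, 9 granzyme genes, Prf1 and Nkg7. Of the 35, 23 were tested, because at least 2 of the 24 arrays lay above the median of their own array, and 12 were too low. Klra14-ps, Klra17 and Klri1 were tested only because of the dendritic cell arrays described next, so that counts over the tested genes are descriptions and not evidence about the family.

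Male C57Bl/6 mice gave the gonadal fat, which was digested with collagenase and sorted by flow cytometry for live cells. Lean mice were kept on normal diet (ND) and obese mice on a diet with 60% fat (HFD), while in a weight loss arm (WL) the HFD was stopped after 12 weeks, for 8 weeks. The sorts gave adipose tissue macrophages without the integrin CD11c (CD11c- ATM: 2 ND, 3 HFD and 2 WL arrays) or with it (CD11c+ ATM: 3 HFD and 3 WL arrays). They also gave adipose tissue dendritic cells (ATDC: 2 ND and 3 HFD arrays) and preadipocytes (PA: 3 ND and 3 HFD arrays), which made 9 groups. Lean mice have no CD11c+ ATM group here. The labels name no transgene, deletion or age, and no NK cells were sorted as a group. The ND and HFD samples were pools of cells from several mice, and the pooling of the WL samples is not given, so p-values measure the spread between these samples and not between single mice.

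NK cells carry inhibitory receptors that read major histocompatibility complex (MHC) class I or related molecules on other cells, and activating receptors that read stress or infection. The Ly49 family (Klra), the NKR-P1 family (Klrb1) and the CD94 and NKG2 family (Klrd1, Klrc and Klrk1) lie next to each other in the NK gene complex, and several of them are also known from T cells and myeloid cells. When activation prevails, granules release perforin, which opens the target's membrane, and granzymes, which are serine proteases that enter it and start cell death. Lean and obese fat both hold NK cells, other innate lymphocytes and T cells.

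Of the 34 genes with a known position, 22 lay on chromosome 6, and 20 of these fell between chr6:128706093 and chr6:131247716 (GRCm38.p6). Of the 9 granzyme genes, 6 lay together on chromosome 14, from chr14:56129556 to chr14:56262334. The start regions of Gzmb, Klrb1b and Klra9, 3 genes to which the macrophage and diet comparisons return, are shown from RefSeq's annotation of GRCm38.p6. Each runs 5′ to 3′ on the minus strand, from 250 bases before the start of transcription to 50 bases after it, at chr14:56262285-56262584, chr6:128826266-128826565 and chr6:130193063-130193362. For Gzmb and Klrb1b that start is the 5′ end of the annotated gene, but for Klra9 it is a start listed by RefSeq inside the annotated gene (chr6:130178626-130194374), so the window shown is not that of its outermost 5′ end. Capitals mark matches, on either strand, to motifs of factors active in cytotoxic lymphocytes: a T-box core (AGGTGT), a Runx site (TGTGGT), an Ets core (AGGAAG) and an AP-1 site (TGANTCA).
Gzmb: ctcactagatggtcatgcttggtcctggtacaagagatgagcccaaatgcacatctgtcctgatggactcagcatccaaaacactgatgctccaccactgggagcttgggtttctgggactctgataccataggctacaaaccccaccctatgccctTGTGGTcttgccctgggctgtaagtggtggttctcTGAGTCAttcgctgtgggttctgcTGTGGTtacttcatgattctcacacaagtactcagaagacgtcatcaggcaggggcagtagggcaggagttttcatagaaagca
Klrb1b: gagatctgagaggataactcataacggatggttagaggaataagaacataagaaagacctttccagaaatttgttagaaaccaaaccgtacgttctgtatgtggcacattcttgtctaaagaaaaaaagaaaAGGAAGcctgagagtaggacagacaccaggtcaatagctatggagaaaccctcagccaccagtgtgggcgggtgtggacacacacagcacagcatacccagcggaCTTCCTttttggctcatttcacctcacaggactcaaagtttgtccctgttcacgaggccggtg
Klra9: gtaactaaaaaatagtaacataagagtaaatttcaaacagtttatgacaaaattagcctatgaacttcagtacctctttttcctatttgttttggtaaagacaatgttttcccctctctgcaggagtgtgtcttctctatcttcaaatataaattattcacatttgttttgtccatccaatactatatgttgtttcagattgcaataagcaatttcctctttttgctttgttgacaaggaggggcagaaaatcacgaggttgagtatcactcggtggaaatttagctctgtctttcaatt
The Gzmb window held 2 Runx sites, which began at -93 and -34 from the start of transcription, and 1 AP-1 site, which began at -58. The Klrb1b window held 2 Ets cores, at -118 and, on the other strand, at -13. The Klra9 window held none of the 4 motifs. Start regions were listed for 29 of the 35 genes. The Runx site was in 16 of these, against 16.9% of all 27025 start regions of that length. The Ets core was in 12 of 29 (35.1% of all), the T-box core in 7 of 29 (13.9%) and the AP-1 site in 5 of 29 (7.9%). Neighbouring Klr genes and neighbouring granzyme genes are copies of one another and share sequence, so these windows are not independent, and a match is a description of letters and not a shown binding site.

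Values are the deposited log2 expression values, in which 1 unit is a doubling, and differences are given as the estimate ± the standard error (SE) of a limma fit with Benjamini-Hochberg adjusted p over the 15496 genes tested. Array medians were 2.96 to 3.15. Where a difference passed and no array of the lower group lay above its own median, it is given as "at least", counted from that median. The sorted cells carried the markers of their names. The median over 14 dendritic cell genes was 7.97 to 8.63 on the ATDC arrays and at most 5.35 elsewhere. The median over 12 macrophage genes was 9.52 to 10.68 on the ATM arrays, 7.81 to 9.46 on the ATDC arrays and at most 8.10 on the PA arrays. The median over 12 preadipocyte genes was 10.28 to 10.58 on the PA arrays and at most 9.08 elsewhere. Arrays correlated with the others of their group at a mean r of 0.881 to 0.980, lowest on the WL CD11c+ ATM arrays.

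Most of the tested receptor and granule genes had their highest values in the dendritic cell sort. Of the 23 tested genes, 17 had their highest group mean in ND ATDC and 1, Klri1, in HFD ATDC. The other five were Gzmb, Gzmk, Gzmm and Klrg2, with the highest mean in WL CD11c- ATM, and Klrb1, with the highest mean in HFD PA. On the ND ATDC arrays 23 of the 35 genes lay above the array's median, and 17 lay above 5 log2 units on each. On the other arrays the number above 5 was 9 to 16 in HFD ATDC, 9 and 10 in WL CD11c- ATM, and at most 4 elsewhere. Preadipocytes had the lowest mean for 16 of the 23 tested genes. The heat map by array shows these blocks.

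**Figure D1:**
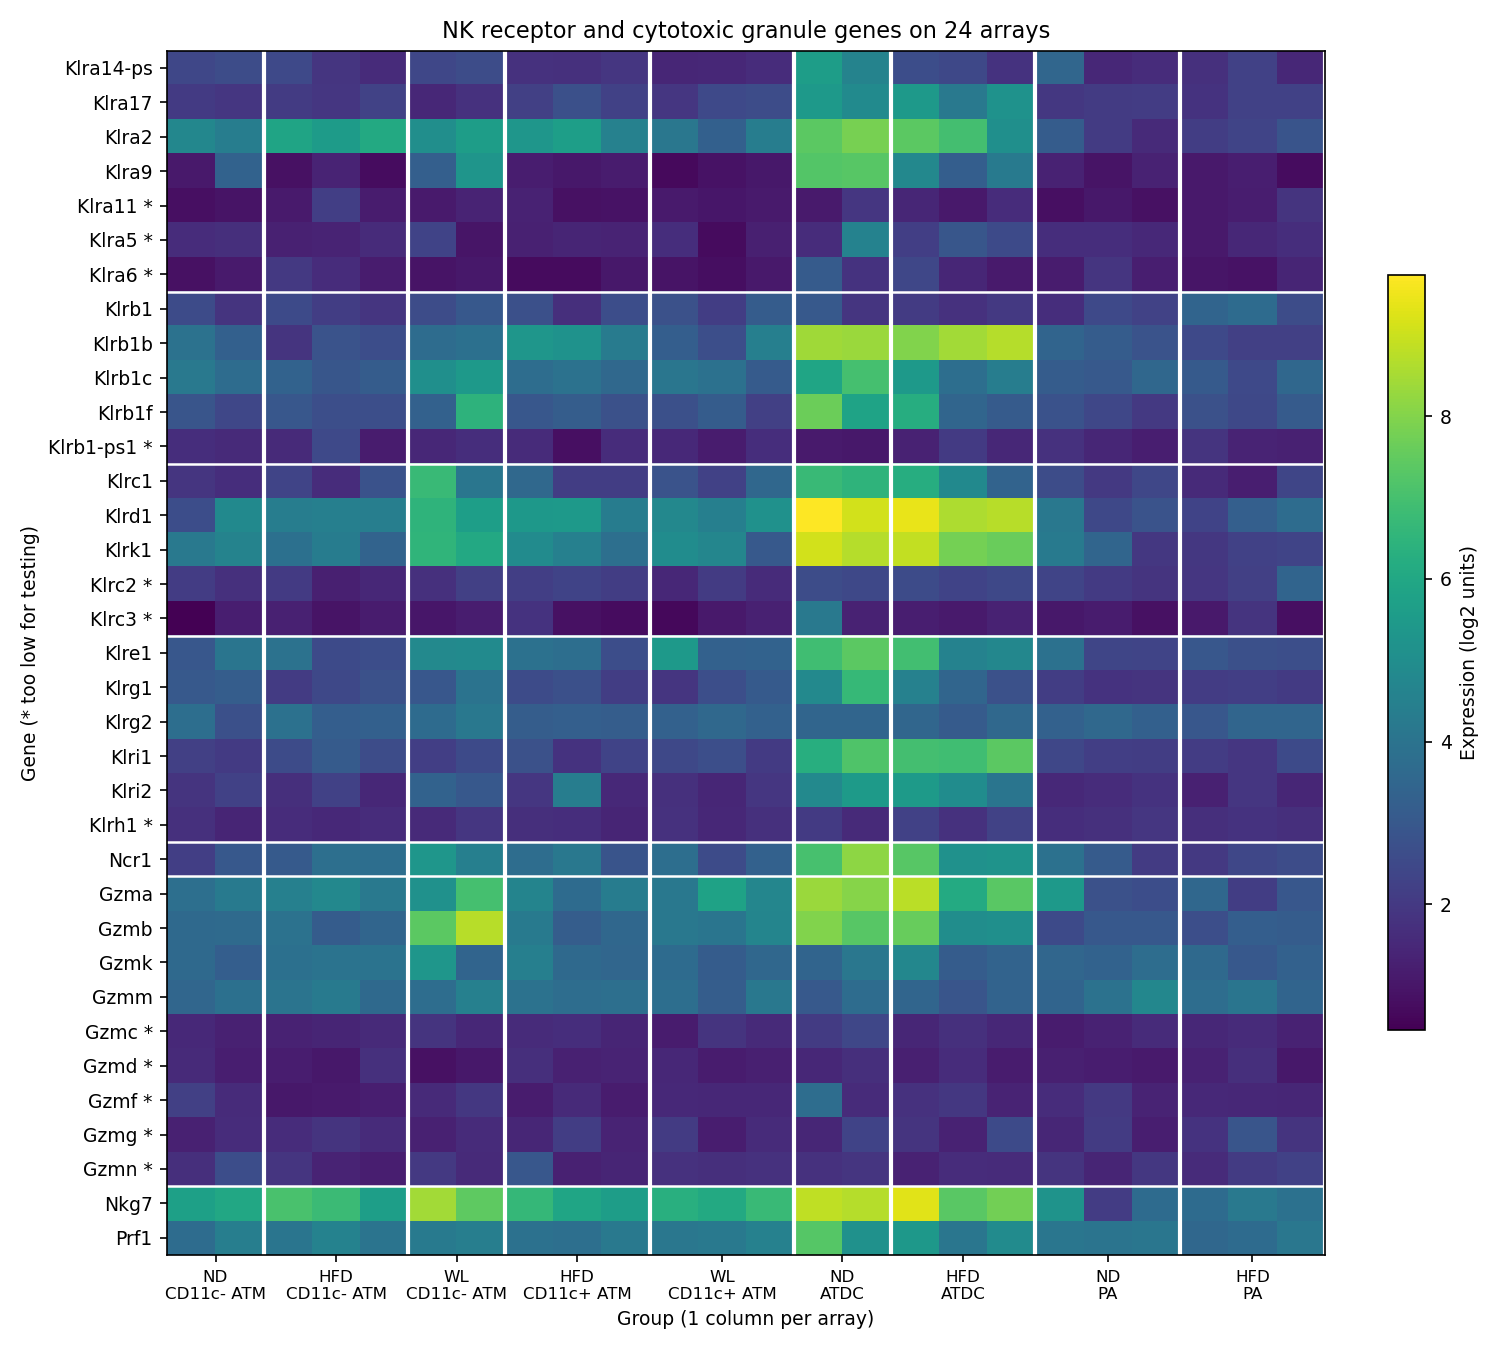
Expression (log2 units, colour) of the 35 genes (rows, grouped by family with white lines; an asterisk marks the 12 genes too low for testing) on the 24 arrays (columns, grouped by sort and diet). Colours compare arrays within a row; the 5 ATDC columns are bright for most Ly49, NKR-P1, CD94 and other receptor rows, and the 2 WL CD11c- ATM columns are bright for Gzmb.

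In lean mice, the dendritic cell sort was set against the CD11c- macrophage sort. Of the 23 tested genes, 19 were higher in ND ATDC and 0 were lower, where 3.67% of all genes tested were higher and 4.6% lower. The median difference of the 23 was 3.21 log2 units, against -0.01 over all genes. The groups did not overlap for 19 of the 23, against 49.2% of all genes, a share that is high because each group had 2 arrays. The 4 that did not pass were Gzmk (0.35 ± 0.51), Gzmm (-0.31 ± 0.40), Klrb1 (0.28 ± 0.46) and Klrg2 (0.22 ± 0.32), which are named here because they are the exceptions.

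Klrd1 encodes CD94, the shared chain of the receptors that read the class Ib molecule Qa-1. It stood at 9.73 and 9.09 in ND ATDC and at 2.63 and 4.84 in ND CD11c- ATM. The difference was 5.67 ± 0.63 (adjusted p = 6.6e-06), although the macrophage arrays differed by over 2 units between themselves. Its inhibitory partner Klrc1 (NKG2A) stood at 6.75 and 6.50 against 1.88 and 1.68, below the array median in the macrophages. It was at least 3.51 higher in ND ATDC (fitted 4.84 ± 0.79, adjusted p = 0.00041). Klrk1, the activating receptor NKG2D, stood at 9.09 and 8.69 against 4.22 and 4.59 (4.48 ± 0.64, adjusted p = 0.00011). Each of these 3 genes kept its call with any of the 4 arrays left out.

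The Ly49 gene Klra9, which encodes an inhibitory receptor for MHC class I, stood at 7.26 and 7.33 in ND ATDC. In ND CD11c- ATM it stood at 1.10 and 3.36, and the difference was 5.06 ± 0.60 (adjusted p = 1.5e-05). Klra17 (Ly49Q), known mainly from plasmacytoid dendritic and other myeloid cells, was at least 2.06 higher (fitted 3.21 ± 0.34, adjusted p = 4e-06), with 5.45 and 4.89 against 2.01 and 1.92. Klra2 (Ly49B), also known from myeloid cells, stood at 7.41 and 7.84 against 4.75 and 4.39 (3.05 ± 0.60, adjusted p = 0.0024). In all 3 genes both dendritic arrays lay above both macrophage arrays. The pseudogene Klra14-ps was at least 1.99 higher (adjusted p = 0.0022), a call that was lost without ND ATDC replicate 1, where the adjusted p rounded to 0.05. Klra17 and Klra14-ps were tested only because of the ATDC arrays, so their differences were partly set by the filter. Ly49 genes are near-identical copies, and how far a probe set reads its neighbours could not be told without the probes.

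Among the NKR-P1 receptors, Klrb1b, an inhibitory receptor whose ligand Clr-b is encoded by Clec2d, stood at 8.41 and 8.34 in ND ATDC and at 3.94 and 3.31 in ND CD11c- ATM. The difference was 4.75 ± 0.46 (adjusted p = 1.3e-06). Klrb1c, which encodes the NK1.1 antigen that marks NK cells in this strain, stood at 5.89 and 7.01 against 4.19 and 3.74 (2.49 ± 0.47, adjusted p = 0.0015). Klrb1f, another receptor of the family, was at least 3.62 higher (adjusted p = 0.0041), but missed the threshold without ND ATDC replicate 1 (adjusted p = 0.082). Clec2d itself was lower in ND ATDC, at 8.67 and 8.76 against 10.02 and 9.69 (-1.14 ± 0.33, adjusted p = 0.034).

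Klri1 and Klri2 encode chains that pair with the Klre1 product to form an inhibitory and an activating receptor. Klri1 stood at 6.28 and 7.16 in ND ATDC and below the array median, at 2.22 and 2.02, in ND CD11c- ATM. It was at least 3.61 higher (fitted 4.60 ± 0.34, adjusted p = 9.5e-08). Klri1 was tested only because of the ATDC arrays, so this difference was partly set by the filter. Klri2 was at least 2.04 higher (adjusted p = 0.0027) and Klre1 was 3.61 ± 0.77 higher (adjusted p = 0.0047), so that the genes of both chains were higher together. The call for Klre1 was lost without ND CD11c- ATM replicate 1 (adjusted p = 0.074). Klrg1, an inhibitory receptor for cadherins, was 2.62 ± 0.54 higher (adjusted p = 0.0036), with 4.82 and 6.67 against 3.06 and 3.19, and was lost without ND ATDC replicate 2 (adjusted p = 0.094). Ncr1 encodes NKp46, an activating receptor that is among the most selective NK markers. It stood at 7.04 and 8.15 against 2.19 and 2.99, and was at least 4.49 higher (fitted 5.01 ± 0.68, adjusted p = 6.6e-05).

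Of the 6 granule genes tested, 4 were higher as well. Gzma, the granzyme with tryptase-like specificity, stood at 8.34 and 8.05 in ND ATDC and at 3.84 and 4.23 in ND CD11c- ATM (4.16 ± 0.86, adjusted p = 0.0035). Gzmb, which activates caspases, stood at 7.99 and 7.31 against 3.64 and 3.66 (4.00 ± 0.62, adjusted p = 0.00026). Both granzymes were far apart between the sorts. Prf1 stood at 7.27 and 5.16 against 3.72 and 4.43 (2.14 ± 0.48, adjusted p = 0.0067). The dendritic arrays differed by 2 units here, and the call was lost without ND ATDC replicate 1 (adjusted p = 0.18) or ND CD11c- ATM replicate 1 (adjusted p = 0.10). Nkg7, a granule membrane protein needed for granule release, stood at 8.83 and 8.70 against 5.71 and 6.00 (2.91 ± 0.73, adjusted p = 0.015). Its groups were well separated, but its call was lost with any of the 4 arrays left out (adjusted p from 0.065 to 0.11).

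Other genes of the NK cell programme were read from lists for the same contrast, in which 3.67% of all genes tested were higher and 4.6% lower. Of 17 other NK and cytotoxic lymphocyte receptors tested, 8 were higher in ND ATDC and 0 were lower. They included Cd244a (4.40 ± 0.39), Cd7 (3.88 ± 0.55), Cd226 (3.73 ± 0.73) and Havcr2 (2.83 ± 0.41). Of 16 cytokine and cytokine receptor genes, 7 were higher, among them the chemokine gene Xcl1 (4.62 ± 0.88), the interleukin receptor gene Il2rb (3.77 ± 0.71) and Il18rap (3.25 ± 0.44). Of 12 transcription factor genes, 4 were higher: Id2 (3.93 ± 0.39), Bhlhe40 (3.82 ± 0.54), Runx3 (1.84 ± 0.45) and Ets1 (1.55 ± 0.35). Id2, Bhlhe40, Havcr2 and Cd244a are also known from dendritic cells. Of 15 signalling genes, Sh2d1b1 (4.51 ± 0.68), Lat (2.73 ± 0.74) and Fyn (1.31 ± 0.34) were higher. Of 17 genes for packing, releasing or holding back granules, 5 were higher, led by Serpinb6b (3.43 ± 0.57) and the cathepsin gene Ctsw (3.36 ± 0.75), and 4 were lower, among them Ctsc (-1.22 ± 0.34), whose product trims granzymes to their active form. The ligand list had 0 higher and 1 lower (Clec2d) of 11, the death receptor list 0 higher and 1 lower of 8, and the trafficking list 2 higher and 2 lower of 9.

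Markers of lymphocytes moved with these genes. The median over 7 NK genes outside the family (Tbx21, Eomes, Il2rb, Cd160, Cd226, Itga2 and Cd244a) was 4.37 and 5.77 on the ND ATDC arrays and 2.78 and 3.01 on the ND CD11c- ATM arrays. Eomes, a defining NK transcription factor, lay above the array's median on 2 of the 24 arrays, ND ATDC replicate 2 (3.41) and HFD ATDC replicate 1 (3.17). The T cell gene Cd3e stood at 6.08 and 6.16 in ND ATDC against 3.20 and 4.16. The median over 13 T cell genes was 4.63 and 3.93 against 3.45 and 3.91, with 3 of 12 tested T cell genes higher and 0 lower. The median over 10 B cell genes was 4.49 and 4.66 in ND ATDC against 3.13 to 3.17 (1 of 9 tested higher), and that over 7 monocyte genes was 7.46 to 7.91 against 5.80 to 6.02 (2 of 7 higher). In a sorted bulk sample, fewer cells of a type and less RNA per cell cannot be told apart, and the part of lymphocytes or monocytes in the ATDC values was not tested.

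The same contrast in obese mice gave a shorter list. Against HFD CD11c- ATM, 13 of the 23 tested genes were higher in HFD ATDC and 0 were lower, where 2.54% of all genes were higher and 3.66% lower. The median difference was 2.33 log2 units, against -0.02 over all genes. Against HFD CD11c+ ATM, 10 of 23 were higher and 0 were lower, where 1.72% of all genes were higher and 2.44% lower, with a median of 2.08 against -0.05. The 2 comparisons share the ATDC arrays. Without HFD ATDC replicate 1, the counts were 8 and 6. Against CD11c+ ATM, the calls lost without it were Gzma (adjusted p = 0.088), Gzmb (0.069), Klri2 (0.10) and Ncr1 (0.16). Gzmb was also lost there without HFD CD11c+ ATM replicate 2 (0.069) or 3 (0.058), Klri2 without replicate 1 (0.098) or 3 (0.11), and Ncr1 without replicate 1 (0.057) or 3 (0.13).

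Of the 23 tested genes, 19 lay above the array median on every HFD ATDC array and 21 on every ND ATDC array. The receptors described next were among them. Klrb1b stood at 7.97, 8.43 and 8.71 in HFD ATDC, at 1.85, 2.83 and 2.66 in HFD CD11c- ATM and at 5.31, 5.17 and 4.32 in HFD CD11c+ ATM. It was at least 5.29 above the CD11c- cells (fitted 5.92 ± 0.37, adjusted p = 1.2e-08) and 3.44 ± 0.37 above the CD11c+ cells (adjusted p = 1.1e-05). Klri1 stood at 6.94, 6.89 and 7.38 in HFD ATDC, and was 4.31 ± 0.28 above CD11c- ATM (adjusted p = 1.4e-08) and at least 4.07 above CD11c+ ATM (adjusted p = 6.7e-09). These ATDC arrays lay within 1 unit of one another in both genes. Klrd1 stood at 9.41, 8.60 and 8.74 and was 4.49 ± 0.51 above CD11c- ATM (adjusted p = 1.3e-05). Klrk1, at 8.88, 7.78 and 7.60, was 4.21 ± 0.52 above them (adjusted p = 3.3e-05), and Klra17, at 5.45, 4.22 and 5.18, was at least 1.88 above them (adjusted p = 1.8e-06). Klra9 stood at 4.78, 3.23 and 4.29 and was at least 1.03 above CD11c- ATM (adjusted p = 0.00041), and Klri2, at 5.50, 4.96 and 4.06, was at least 1.77 above them (adjusted p = 0.00068). The Klra9 value of 3.23, on HFD ATDC replicate 2, lay near the median of that array (3.05). In Klrb1b, Klri1, Klrd1, Klrk1 and Klra17 every one of the 5 ATDC arrays of both diets lay above all 19 other arrays, as in 1.71% of all genes tested. Klri1 and Klra17 were tested only because of the ATDC arrays, so for them this separation was partly set by the filter.

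The granule genes and NKp46 were less settled in HFD ATDC. Gzma stood at 8.78, 6.14 and 7.37 (2.94 ± 0.70 above CD11c- ATM, adjusted p = 0.013). Gzmb stood at 7.58, 5.01 and 5.09 (2.36 ± 0.51, adjusted p = 0.0063), and Ncr1 at 7.32, 5.16 and 5.21 (2.33 ± 0.55, adjusted p = 0.013). Replicate 1 was the highest in all 3 genes. Without it, Gzma and Ncr1 missed the threshold (both with adjusted p = 0.098), and Gzma also did without HFD CD11c- ATM replicate 3 (0.054) and Ncr1 without HFD CD11c- ATM replicate 1 (0.066). Klrc1, which was at least 1.75 higher, Klre1 and Klrb1c passed against CD11c- ATM as well (adjusted p = 0.018, 0.028 and 0.031), and each missed it without HFD ATDC replicate 1 (0.13, 0.19 and 0.21). Among the HFD CD11c- ATM arrays, leaving out replicate 2 lost Klrc1 (0.083), leaving out replicate 2 or 3 lost Klre1 (0.11 each), and leaving out replicate 1, 2 or 3 lost Klrb1c (0.054, 0.10 and 0.084), which was also lost without HFD ATDC replicate 3 (0.058). Prf1 (0.59 ± 0.39, adjusted p = 0.52), Nkg7 (1.64 ± 0.60, 0.13), Klrg1 (1.15 ± 0.44, 0.15) and Klra2 (0.64 ± 0.49, 0.60) did not pass. The plot of the ATDC minus macrophage differences sets the 2 diets side by side.

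**Figure D2:**
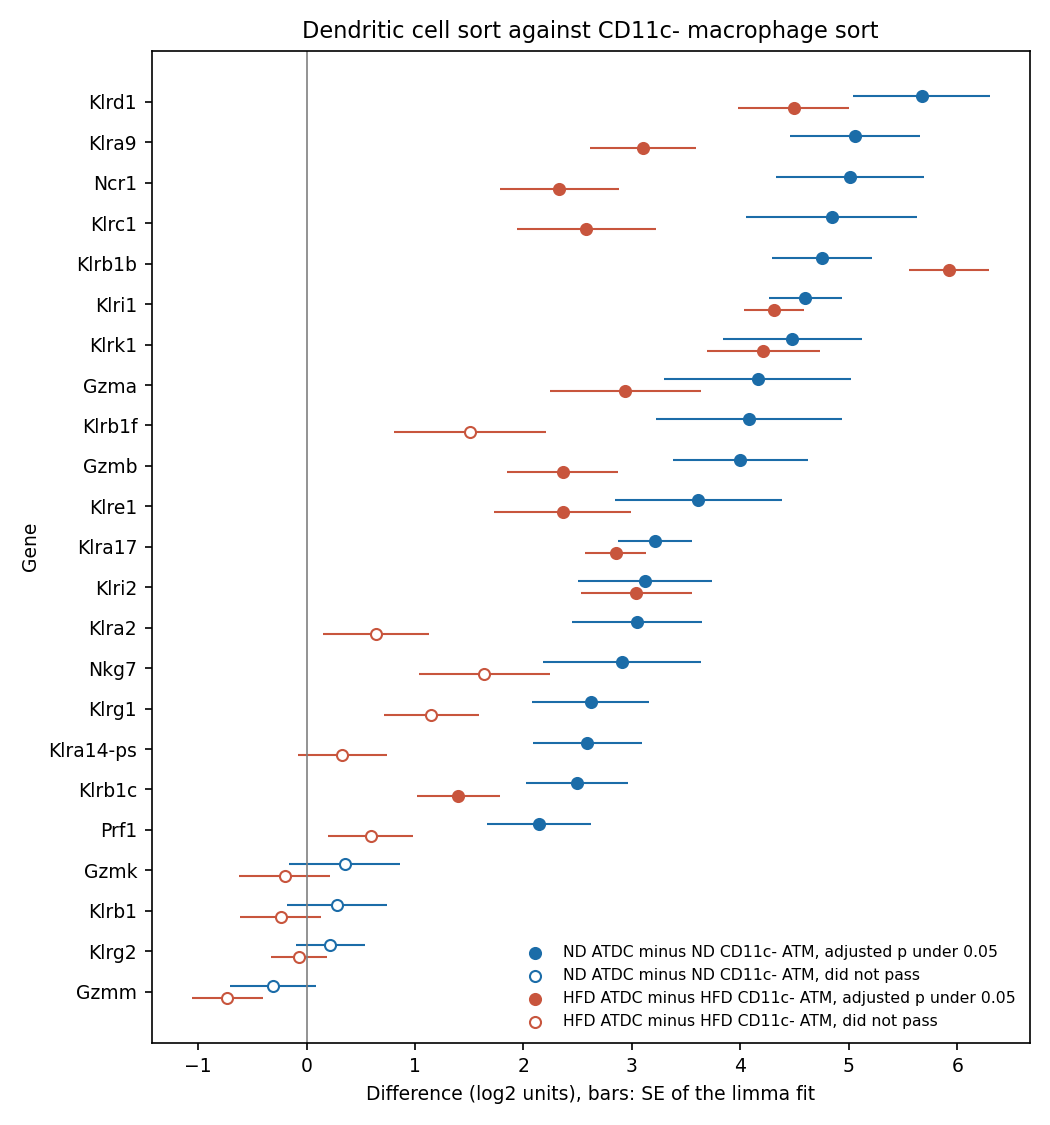
Difference between ATDC and CD11c- ATM (log2 units, horizontal axis) for the 23 tested genes (vertical axis), in ND mice (blue) and HFD mice (red); bars are the SE of the fit, and filled points have an adjusted p under 0.05. The 19 filled blue points lie at 2.14 or more, and 13 red points are filled, of which Klrb1b lies furthest to the right at 5.92.

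The effect of diet within the dendritic cells was the next question. Of the 23 tested genes, 0 were higher and 2 were lower in HFD ATDC, where 0.155% of all genes were higher and 0.103% lower. The median difference was -0.81 log2 units, against 0.01 over all genes, and 22 of the 23 estimates were below 0. At an unadjusted p under 0.05, 11 of the 23 genes were listed, against 8.62% of all genes. The groups did not overlap for 6 of 23, against 22.1% of all genes. The B cell, NK cell and T cell lists had median gene differences below 0 too, although 0 of their genes passed in limma. The median over 10 B cell genes was 4.49 and 4.66 in ND ATDC and 3.70, 3.55 and 3.37 in HFD ATDC, without overlap, and 4 of 9 tested genes had an unadjusted p under 0.05. The NK cell list, which includes genes of this family, had a median difference of -0.78 with 5 of 14 at that p, and the T cell list one of -0.65 with 1 of 12. The 7 NK genes outside the family overlapped between the diets, with medians of 4.37 and 5.77 against 4.82, 4.29 and 3.83. So did the 13 T cell genes, with medians of 4.63 and 3.93 in ND ATDC against 5.17, 3.69 and 4.01 in HFD ATDC. The highest of these T cell medians was on an HFD array, so a lower T cell level was not shown. The part of these lymphocytes in the differences was not tested.

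Both genes that fell belong to the Ly49 family. Klra14-ps was tested only because of the ND ATDC arrays, where it was high, so its fall was partly set by the filter. Klra9 stood at 7.26 and 7.33 in ND ATDC and at 4.78, 3.23 and 4.29 in HFD ATDC. All 3 HFD arrays lay more than 2 units below both ND arrays, and the difference was -3.20 ± 0.55 (adjusted p = 0.012). A row shared by Klra3 and Klra9 stood at 2.38 and 2.71 in ND ATDC and at 1.65, 2.06 and 2.995 in HFD ATDC. These values lay below the array medians and overlapped between the diets, so that row cannot show a fall. A row shared by Klra10 and Klra3 stood at 6.18 and 5.12 in ND ATDC and, without overlap, at 4.59, 3.88 and 3.66 in HFD ATDC. One shared by Klra1, Klra22 and further Ly49 genes overlapped, at 4.56 and 2.89 against 3.71, 1.91 and 1.82. Rows of several genes were not tested. The pseudogene Klra14-ps stood at 5.61 and 4.60 against 2.65, 2.46 and 1.81. The HFD arrays were all below the array median, so that the fall was by at least 2.02 (fitted -2.79 ± 0.46, adjusted p = 0.012). Klra9 missed the threshold without ND ATDC replicate 1 (adjusted p = 0.074) or 2 (0.054), and Klra14-ps without ND ATDC replicate 1 (0.13) or HFD ATDC replicate 3 (0.051). The other Ly49 genes did not pass, with Klra2 at -1.15 ± 0.55 (adjusted p = 0.58) and Klra17 at -0.22 ± 0.31 (adjusted p = 0.96).

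None of the other receptors passed. Klrb1c stood at 5.89 and 7.01 in ND ATDC and at 5.46, 3.81 and 4.38 in HFD ATDC (-1.90 ± 0.43, adjusted p = 0.074). Klrg1 stood at 4.82 and 6.67 against 4.53, 3.48 and 2.74 (-2.16 ± 0.49, adjusted p = 0.080). In both genes the diets did not overlap, but neither passed. A row shared by Klrb1a and Klrb1c, which was not tested, did not overlap either, at 8.21 and 7.09 against 6.28, 6.53 and 6.08. Ncr1 (-1.70 ± 0.62, adjusted p = 0.36), Klrc1 (-1.80 ± 0.72, 0.44), Klre1 (-1.72 ± 0.70, 0.45) and Klrb1f (-2.44 ± 0.78, 0.27) had estimates of similar size with more spread. Klrb1b stood at 8.41 and 8.34 against 7.97, 8.43 and 8.71, a difference of -0.01 with a 95% interval from -0.88 to 0.86. Klri1 stood at 6.28 and 7.16 against 6.94, 6.89 and 7.38 (0.35, interval from -0.31 to 1.00). In these 2 genes the diets overlapped, and the intervals leave room for a change of nearly 1 unit. Klrd1 (-0.50 ± 0.57) and Klrk1 (-0.81 ± 0.58) did not pass.

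Of the granule genes, Gzmb stood at 7.99 and 7.31 in ND ATDC and at 7.58, 5.01 and 5.09 in HFD ATDC (-1.76 ± 0.57, adjusted p = 0.27). Prf1 stood at 7.27 and 5.16 against 5.39, 4.09 and 4.94 (-1.41 ± 0.44, adjusted p = 0.25). In both genes HFD replicate 1 lay within the ND range. Without ND ATDC replicate 2 Prf1 passed (-2.46 ± 0.40, adjusted p = 0.0099), as did Klrg1 without ND ATDC replicate 1 (-3.09 ± 0.54, 0.018). Gzma (-0.76 ± 0.78) and Nkg7 (-0.62 ± 0.67) overlapped between the diets too, with adjusted p of 0.92 and 0.93.

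HFD ATDC replicate 1 stood apart from the other two. It was the highest of the 3 HFD arrays for 20 of the 23 tested genes, against 32.8% of all genes. Its median distance from the ND mean over the 23 was -0.21 log2 units, against -1.42 for replicate 2 and -1.27 for replicate 3. For Gzmb the distances were -0.07, -2.64 and -2.56, and for Ncr1 they were -0.28, -2.43 and -2.39. Markers of other cells moved with this. The median over 13 T cell genes was 5.17 on replicate 1 and 3.69 and 4.01 on the others, that over the 7 other NK genes 4.82, 4.29 and 3.83, and that over 9 plasmacytoid dendritic cell genes 6.83, 3.86 and 5.26. The median over 10 mast cell genes was 4.45, 2.37 and 2.77, and that over 12 macrophage genes was 7.81, 9.46 and 8.99. Their part in the spread was not tested. Without replicate 1, the genes that passed went from 40 to 78 over all genes tested, and 6 of this family fell: Klra9, Klra14-ps, Gzmb (-2.60 ± 0.41, adjusted p = 0.0088), Klrb1c (-2.36 ± 0.40, 0.012), Klrg1 (-2.63 ± 0.49, 0.020) and Klrb1f (-3.43 ± 0.68, 0.028).

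**Figure D3:**
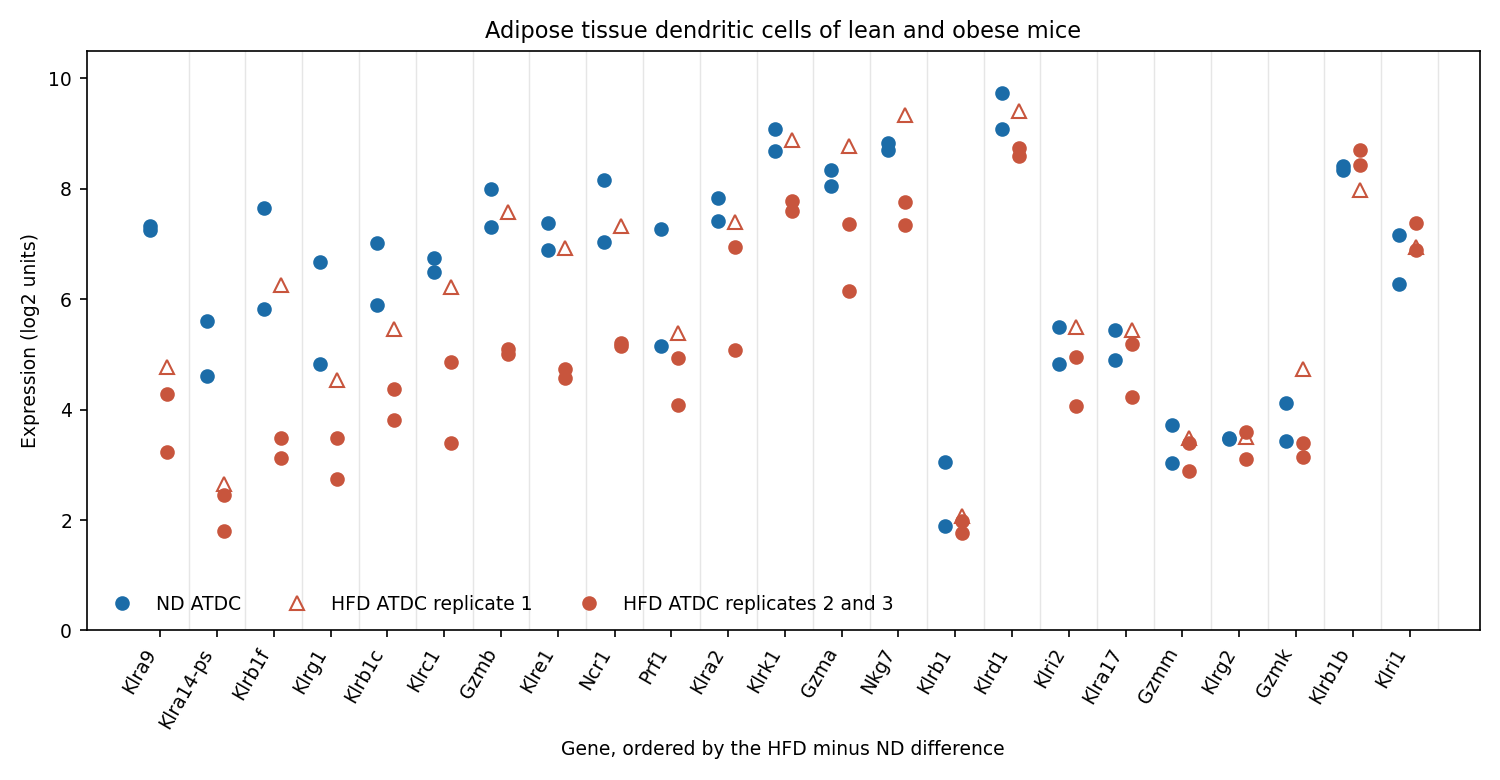
Expression (log2 units) of the 23 tested genes in ATDC, ordered from left to right by the HFD minus ND difference; blue points are the 2 ND arrays, red circles HFD replicates 2 and 3, and open red triangles HFD replicate 1. The triangles lie near the blue points for genes such as Gzmb (7.58) and Ncr1 (7.32), where the red circles lie near 5, and all red symbols lie below the blue for Klra9.

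Neither the macrophages nor the preadipocytes showed a call between ND and HFD. In CD11c- ATM, 0 of 23 tested genes passed, where 0.439% of all genes were higher and 0.174% lower. There were 3 at an unadjusted p under 0.05 in limma, against 8.6% of all genes: Klrb1b (-1.18 ± 0.42), Klra2 (1.26 ± 0.55) and Klra9 (-1.23 ± 0.55). In PA 0 of 23 passed, where 1.69% of all genes were higher and 0.897% lower, with 2 at an unadjusted p under 0.05 in limma (11.6% of all genes), Klrb1 (1.09 ± 0.37) and Klrb1b (-0.84 ± 0.37). The difference between the diet effects of ATDC and CD11c- ATM passed for 0 of 23 genes in limma, where 0.0452% of all genes were higher and 0.0129% lower, with 8 at an unadjusted p under 0.05 (7.25% of all genes). Ncr1 had the largest estimate (-2.68 ± 0.88, adjusted p = 0.43), and that for Klra9 was -1.96 ± 0.78 (adjusted p = 0.57). A diet effect particular to ATDC was therefore not shown for any of them. The 3 counts of 0 were also 0 with robust and trended variances and with array weights.

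Between the 2 macrophage types of obese mice, 1 gene of all those tested passed, and it was Klrb1b. Klrb1b stood at 5.31, 5.17 and 4.32 in HFD CD11c+ ATM and at 1.85, 2.83 and 2.66 in HFD CD11c- ATM. The groups did not overlap, and all CD11c- values were below the array median. Klrb1b was at least 1.86 higher in the CD11c+ cells (fitted 2.49 ± 0.37, adjusted p = 0.032), 1 of 23 tested genes where 0.00645% of all genes were higher and 0% lower. The call was lost without CD11c+ replicate 1 (adjusted p = 0.13) or 2 (0.12), or CD11c- replicate 1 (0.090) or 3 (0.064). It was also lost after a further quantile normalization (0.055) and in a fit of these 6 arrays alone (0.39). In the other macrophage groups Klrb1b stood at 3.94 and 3.31 in ND CD11c- ATM, at 3.74 and 3.89 in WL CD11c- ATM, and at 3.23, 2.69 and 4.44 in WL CD11c+ ATM. The median over 14 dendritic cell genes overlapped between the HFD types, at 4.27 to 5.10 in CD11c+ ATM and 4.61 to 5.35 in CD11c- ATM. Of the 14, 0 passed in limma and 4 had an unadjusted p under 0.05 (6.43% of all genes). Single genes went both ways. Flt3 stood at 4.88, 4.79 and 3.71 against 3.34, 3.49 and 2.92, and Zbtb46 at 4.59, 4.24 and 3.90 against 4.75, 4.78 and 4.69. Other lists were apart on these arrays, although 0 of their genes passed in limma. The median over the 7 other NK genes was 3.84, 3.64 and 3.37 in CD11c+ ATM and 3.27, 3.02 and 3.15 in CD11c- ATM. The median over 7 monocyte genes was 5.74 to 6.09 against 6.66 to 7.01, with 5 of 7 at an unadjusted p under 0.05, where 6.43% of all genes were. That over 12 preadipocyte genes was 5.76 to 6.83 against 7.15 to 9.08, with 10 of 12 at that p. The part of these cells in the Klrb1b difference was not tested.

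After weight loss, Gzmb and some of the receptor genes were higher in the CD11c- macrophage sort. Against HFD CD11c- ATM, 5 of 23 tested genes were higher in WL CD11c- ATM and 0 were lower, where 1.17% of all genes were higher and 1.79% lower. The median difference was 1.37 log2 units, against -0.09 over all genes, and 17 of 23 did not overlap, against 33% of all genes. Against ND CD11c- ATM, 4 were higher and 0 were lower, where 3.23% of all genes were higher and 2.95% lower, with a median of 1.16 against -0.08. The 2 comparisons share the WL arrays.

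Gzmb stood at 7.39 and 8.74 in WL CD11c- ATM. It stood at 3.95, 3.16 and 3.48 in HFD CD11c- ATM and at 3.64 and 3.66 in ND CD11c- ATM. Both WL arrays lay more than 3 units above the rest, by 4.54 ± 0.57 against HFD (adjusted p = 0.00011) and 4.41 ± 0.62 against ND (adjusted p = 0.00036). Both calls held with any one array of the groups compared left out. Gzma did not pass against HFD (1.58 ± 0.78, adjusted p = 0.30), with 5.13 and 7.01 against 4.48, 4.78 and 4.20. Prf1 stood at 4.29 and 4.42 against 4.07, 4.55 and 4.03, a difference of 0.14 ± 0.44 (adjusted p = 0.91). Nkg7 stood at 8.46 and 7.44 against 7.07, 6.77 and 5.65 (1.45 ± 0.67, adjusted p = 0.26). Of the granule genes, Gzmb was thus the 1 that passed.

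Among the receptors, Klra9 stood at 3.25 and 5.30 in WL CD11c- ATM and at 0.88, 1.37 and 0.75 in HFD CD11c- ATM. It was at least 1.2 higher (fitted 3.27 ± 0.55, adjusted p = 0.0031), with any one array left out as well. Against ND it was 2.04 ± 0.60 higher (adjusted p = 0.049), but the ND values of 1.10 and 3.36 overlapped the WL values, and the call was lost without ND replicate 1 (adjusted p = 0.51) or WL replicate 2 (0.43). It was also lost with no filter on low values (0.063), with arrays centred (0.052) or quantile-normalized again (0.057), with array weights (0.085) and in a fit of these arrays alone (0.39). Klrc1 stood at 6.73 and 4.10 against 2.34, 1.61 and 2.80, and was at least 2.34 higher than in HFD (adjusted p = 0.022). It was at least 2.30 higher than in ND (adjusted p = 0.0087). Its WL arrays differed by over 2 units, and without WL replicate 1 the calls were lost against HFD (adjusted p = 0.27) and against ND (0.13). They were also lost without HFD replicate 1 (0.059) or 2 (0.074), and without ND replicate 1 (0.052) or 2 (0.069).

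Klrb1c stood at 5.09 and 5.47 against 3.37, 2.93 and 3.15 in HFD CD11c- ATM (2.13 ± 0.43, adjusted p = 0.011), and was lost without WL replicate 2 (0.056). On a row shared by Klrb1a and Klrb1c these groups overlapped. Klrk1 stood at 6.53 and 6.05 against 3.88, 4.34 and 3.41 (2.41 ± 0.58, adjusted p = 0.030). In both genes the WL arrays lay close together and above all HFD arrays. Klrk1 was lost without either WL array (adjusted p = 0.16 and 0.058) and without HFD replicate 1 (0.080) or 3 (0.072). Klrd1 stood at 6.48 and 5.67, against 2.63 and 4.84 in ND (2.34 ± 0.63, adjusted p = 0.032), and was lost without ND replicate 1 (0.38) or WL replicate 1 (0.18). Without ND replicate 1, 1 of the 4 calls against ND was left, that of Gzmb. Ncr1 did not pass against ND (fitted 2.29 ± 0.68, adjusted p that rounds to 0.05) or HFD (1.31 ± 0.62, adjusted p = 0.27), with 5.31 and 4.46 in WL. Klrb1f, at 3.35 and 6.45 in WL, passed without WL replicate 1 against HFD (adjusted p = 0.023) and ND (0.018), and Gzmk passed against ND without WL replicate 2 (0.041).

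In CD11c+ ATM the same withdrawal of the diet gave 0 calls of 23 in limma, where 0.632% of all genes were higher and 0.697% lower, with 2 at an unadjusted p under 0.05 (20.1% of all genes). With the stricter filter on low values the count was 1. Klrb1b had the largest difference (-1.48 ± 0.37, adjusted p = 0.056), and it passed without WL CD11c+ replicate 3 (-1.97 ± 0.34, adjusted p = 0.0067). Gzmb stood at 4.15, 4.06 and 4.68 in WL CD11c+ ATM and at 4.24, 3.18 and 3.56 in HFD CD11c+ ATM (0.63 ± 0.51, adjusted p = 0.51). The difference between the 2 effects of weight loss was tested as an interaction, CD11c+ minus CD11c-. It passed for 2 of 23 genes, both below 0, where 0.0194% of all genes passed above 0 and 0.142% below 0: Gzmb (-3.90 ± 0.76, adjusted p = 0.041) and Klrb1b (-2.85 ± 0.56, adjusted p = 0.041). For Klra9 it was -3.53 ± 0.74 (adjusted p = 0.064), and it passed without WL CD11c- replicate 1 (-4.55 ± 0.73, adjusted p = 0.0061). The Gzmb call held without WL CD11c- replicate 1 and was lost without any other single array (adjusted p from 0.056 to 0.15). The Klrb1b call held without HFD or WL CD11c+ replicate 3 and was lost without any other (0.063 to 0.16). Both calls were also lost with no filter on low values (adjusted p that rounds to 0.05) and in a fit of the arrays compared alone (0.07 for Gzmb and 0.4 for Klrb1b). That of Klrb1b was lost with arrays centred (0.054) or quantile-normalized again (0.052) and with array weights (0.19).

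Within the WL mice, CD11c+ and CD11c- macrophages differed directly. Of 23 tested genes, 2 were lower in WL CD11c+ ATM and 0 were higher, where 0.691% of all genes were higher and 0.652% lower. The Gzmb difference was -3.77 ± 0.57 (adjusted p = 0.0015). Klra9, at 0.69, 0.92 and 1.05 in the CD11c+ cells, was lower by at least 1.21 (fitted -3.38 ± 0.55, adjusted p = 0.0032). Neither gene's groups overlapped, and both calls held with any one array of these groups left out. Klrb1c (-1.56 ± 0.43, adjusted p = 0.076), Klrc1 (-2.54 ± 0.72, 0.084) and Klrk1 (-2.05 ± 0.58, 0.087) did not pass. Klrc1 passed without WL CD11c- replicate 2 (-3.86 ± 0.78, 0.015) and Klrb1f without replicate 1 (-3.76 ± 0.83, 0.026).

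**Figure D4:**
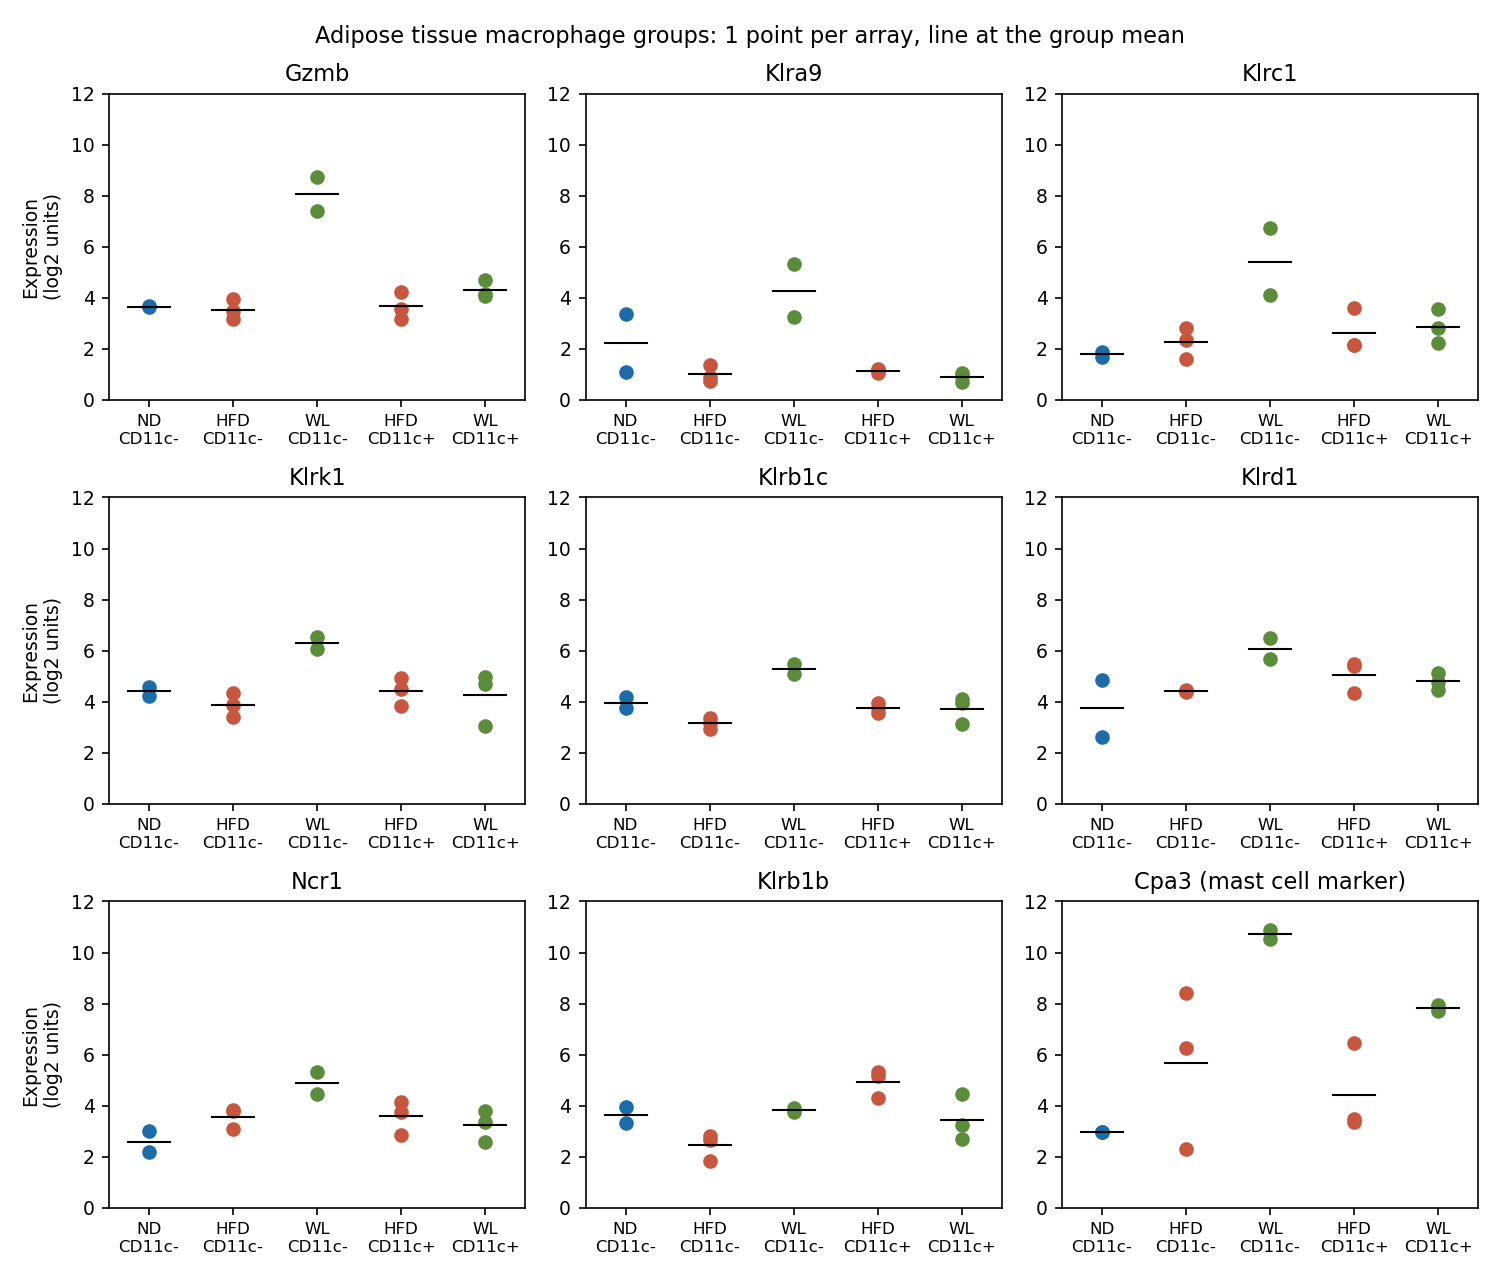
Expression (log2 units, vertical axis) of 8 receptor and granule genes and of the mast cell gene Cpa3 in the 5 macrophage groups (horizontal axis); each point is an array, lines are group means, and colours mark diet (blue ND, red HFD, green WL). Gzmb reaches 7.39 and 8.74 in WL CD11c- ATM and at most 4.68 in the other groups. In those other groups Cpa3 reaches up to 8.43, and the median over 10 mast cell genes, not drawn, was at most 5.12.

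Other genes of the programme were read from the same lists. In WL CD11c+ against CD11c- ATM, Pilrb1 (-3.73 ± 0.71), Itga1 (-1.71 ± 0.36), Csf2 (-1.60 ± 0.24) and Ets1 (-1.51 ± 0.32) were lower. They were 2 of 17 other receptors, 1 of 16 cytokine genes and 1 of 12 transcription factor genes. Over all genes, 0.691% were higher and 0.652% lower. In WL against HFD CD11c- ATM, the genes that passed were the kinase gene Zap70 (1.37 ± 0.34), the cytokine genes Csf2 (1.64 ± 0.24) and Ccl4 (1.47 ± 0.36), the transcription factor genes Bhlhe40 (2.68 ± 0.49) and Ets1 (1.32 ± 0.32), the inhibitor gene Cst7 (2.25 ± 0.49) and Tnfsf10 (1.77 ± 0.36), all higher, and Il18 (-1.40 ± 0.31), which was lower. That is 1 of 15 signalling genes, 2 higher and 1 lower of 16 cytokine genes, 2 of 12 transcription factor genes, 1 of 17 granule packing genes and 1 of 8 death receptor genes. Over all genes, 1.17% were higher and 1.79% lower in WL CD11c- ATM. None of the 17 other NK and cytotoxic lymphocyte receptors passed, with 7 at an unadjusted p under 0.05 in limma (17.7% of all genes). In WL against ND CD11c- ATM, 2 of 15 signalling genes, 2 of 17 other receptors and 4 of 12 transcription factor genes were higher. So were 2 of 8 death receptor genes and 1 of 9 trafficking genes, where 3.23% of all genes were higher and 2.95% lower. Of 16 cytokine genes 3 were higher, led by Xcl1 (3.47 ± 0.88), and 1 was lower. Of 17 granule packing genes 2 were higher and 2 lower, and of 11 ligand genes 1 was lower.

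Markers of several other cell types, mast cells first, moved with the WL differences. The median over 10 mast cell genes was 7.78 and 8.74 on the WL CD11c- arrays, 3.79 to 5.12 on the WL CD11c+ arrays, 2.26 to 4.12 on the HFD CD11c- arrays and 2.36 and 2.55 on the ND CD11c- arrays. Of the 10, 8 were higher in WL than in HFD CD11c- ATM, 10 were higher than in ND, and 6 were lower in WL CD11c+ than in WL CD11c- ATM. The carboxypeptidase gene Cpa3, a defining mast cell gene, stood at 10.55 and 10.87 in WL CD11c- ATM, beside Gzmb at 7.39 and 8.74. In WL CD11c+ ATM Cpa3 stood at 7.84, 7.96 and 7.71 with Gzmb at 4.15, 4.06 and 4.68, and on HFD CD11c- ATM replicate 1 it stood at 8.43 with Gzmb at 3.95. On that HFD array the median over the 10 mast cell genes was 4.12, so the high Cpa3 value did not stand for the list. The median over the 7 other NK genes was 3.66 and 3.81 on the WL CD11c- arrays, 3.02 to 3.27 on the HFD CD11c- arrays and 3.28 to 3.63 on the WL CD11c+ arrays. The median over 13 T cell genes was 3.90 and 3.99, against 3.51 to 4.22 and 3.49 to 4.09. Of 12 tested T cell genes 1 passed in WL against HFD CD11c- ATM, Cd28 (1.16 ± 0.30, adjusted p = 0.04). Cd3e (6.45 and 4.84 in WL against 4.16, 4.31 and 4.33 in HFD) did not, nor did Cd8a (3.01 and 3.90 against 4.29, 4.05 and 3.51) or Cd4 (2.68 and 2.20 against 3.08, 3.22 and 2.95). Against ND CD11c- ATM, 1 of the 12 T cell genes passed in limma, Cd3e, which was higher (1.96 ± 0.55, adjusted p = 0.04). The medians on the ND CD11c- arrays were 2.78 and 3.01 for the 7 NK genes and 3.45 and 3.91 for the T cell genes.

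B cell, endothelial and preadipocyte genes were also high on the WL CD11c- arrays. The median over 10 B cell genes was 3.95 and 3.86 there, 2.84 to 3.09 on the HFD CD11c- arrays and 3.12 to 3.40 on the WL CD11c+ arrays. Of 9 tested, the B cell surface gene Ms4a1 alone passed in these 2 contrasts (1.68 ± 0.34 in WL minus HFD, adjusted p = 0.011, and -1.76 ± 0.34 in CD11c+ minus CD11c-, adjusted p = 0.012), while against ND Bank1 alone passed and was lower (-2.18 ± 0.54, adjusted p = 0.019). The median over 8 endothelial genes was 5.58 to 5.93 against 3.56 to 4.73 in HFD CD11c-, 3.47 to 3.75 in ND CD11c- and 4.38 to 4.55 in WL CD11c+ ATM. Of the 8, 2 were higher than in HFD (Cldn5 and Pecam1) and 4 higher than in ND. The median over 12 preadipocyte genes was 8.83 and 8.36 in WL and 5.41 and 4.67 in ND CD11c- ATM, with 10 of 12 higher, but 7.15 to 9.08 in HFD, with 0 of 12 passing in limma and 1 at an unadjusted p under 0.05. The median over 7 monocyte genes was 7.22 to 7.58 in WL CD11c- and 5.53 to 6.38 in WL CD11c+ ATM, with 1 of 7 lower in the CD11c+ cells. It was 6.66 to 7.01 in HFD (0 of 7 passing) and 5.80 to 6.02 in ND CD11c- ATM (2 of 7 higher in WL). The median over 12 macrophage genes was 9.83 to 9.84 in WL CD11c-, 10.25 to 10.39 in HFD (0 of 12 passing) and 10.58 to 10.68 in ND CD11c- ATM (1 of 12 lower in WL). Of 7 neutrophil genes tested, 1 was higher than in HFD and 2 higher than in ND. The part of mast cells, lymphocytes, endothelial cells, preadipocytes, monocytes, macrophages or neutrophils in these differences was not tested.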

How the data were processed

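RNA of sorted cells was amplified as cDNA, labelled with biotin and hybridised to 1-colour arrays, per the labels' protocols. The deposited table holds log2 values; the authors used RMA, oligo and limma, per the submitters' processing notes, with no settings given. Scanner files were not used here, so background was judged only against each array's median. Of 41345 probe rows, 23521 had 1 gene symbol, 1814 had several and 16010 were not named here; 23328 were matched by gene identifier to RefSeq's GRCm38.p6 table. A gene with several rows kept the one with the highest mean over the 24 arrays. Genes with at least 2 arrays above their own median were tested (15496). limma 3.58.1 in R 4.3.3 (lmFit, eBayes) fitted 9 group means to all arrays with 15 residual degrees of freedom, for 11 comparisons and 2 interactions, two-sided, at an adjusted p of 0.05; the code was tested on simulated data. The number of arrays limits the precision. Alternatives changed the filter, scaling, probe choice, weights, variance model, block and arrays. Named were all genes that passed in a comparison, 9 well-known members, up to 4 genes per list and exceptions. The members and lists were chosen with earlier results of these data known.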

Additional observations from a re-analysis of the deposited data

Results flagged for a closer look

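The effect of weight loss differed between the macrophage types, CD11c+ minus CD11c-, for Gzmb (-3.90, adjusted p = 0.041) and Klrb1b (-2.85, adjusted p = 0.041) in the limma interaction. Gzmb was high on both WL CD11c- arrays, and Klrb1b was high on the HFD CD11c+ arrays and low on the HFD CD11c- arrays. Both calls were lost with no filter on low values, with a replicate block, in a fit of the arrays compared alone and without most single arrays, and that of Klrb1b also with another scaling or array weights.

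Rows whose probes match several genes were left out of the comparisons, with no test made. Of the 6 with a family gene, 3 reached above the array median in ND ATDC, with both arrays above both ND CD11c- ATM arrays. The row shared by Klrb1a and Klrb1c was 5.67 log2 units higher, that shared by Klra10 and Klra3 was 4.00 higher, and that shared by Klra1, Klra22, Klra4, Klra7 and further Ly49 genes was 1.95 higher. The Klrb1a and Klrb1c row stood at 8.21 and 7.09 in ND ATDC, 6.28, 6.53 and 6.08 in HFD ATDC, and 2.02 and 1.93 in ND CD11c- ATM. In WL CD11c- ATM it stood at 2.73 and 4.05, which overlapped 3.95, 2.72 and 2.78 in HFD CD11c- ATM. The row shared by Klra3 and Klra9 was also higher in ND ATDC, but below the array medians. It stood at 2.38 and 2.71 there and at 1.17 and 1.56 in ND CD11c- ATM.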

How the results depend on the processing

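Over 58 gene differences that passed, 825 values under alternative settings kept their direction, 706 passed and 119 did not, and 0 reversed. Of the 58, 28 passed in every setting run and 32 with every single array left out. Fitting only the arrays of the groups compared, which leaves fewer arrays for the spread, gave 0 calls in HFD against ND ATDC (main count 2), 7 in HFD ATDC against CD11c- ATM (13), 0 between the HFD macrophages (1), 0 between the WL macrophages (2), 1 in WL against HFD CD11c- ATM (5), 1 in WL against ND (4) and 0 in the weight loss interaction (2). Array weights gave 4, 3, 2 and 1 in HFD against ND ATDC, WL against HFD CD11c- ATM, WL against ND and the interaction. The interaction count was 0 with no filter, and 1 with arrays centred or quantile-normalized again. Quantile normalization gave 0 between the HFD macrophages, and the stricter filter gave 1 in WL against HFD CD11c+ ATM. The cause of these moves was not tested.

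Leaving out single arrays gave 1 to 6 calls in HFD against ND ATDC, 15 to 18 in ND ATDC against CD11c- ATM, 8 to 13 and 6 to 12 in HFD ATDC against CD11c- and CD11c+ ATM, 0 to 1 between the HFD macrophages, 2 to 3 between the WL macrophages, 0 to 1 and 3 to 4 in WL against HFD CD11c+ and CD11c- ATM, 1 to 4 in WL against ND, and 0 to 2 in the weight loss interaction. Replicate numbers did not pair the samples, with r of same-numbered deviations from -0.131 to 0.252. With the replicate number as a block, 4 gene calls were lost, those of Klrb1b between the HFD macrophages (adjusted p = 0.08), Klra9 in WL against ND (0.058), and Gzmb (0.07) and Klrb1b (0.075) in the interaction, and the count was 0 between the HFD macrophages and 0 in the interaction; the other counts stayed within 1.5 times.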

Other observations

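The 12 genes too low for testing were Gzmc, Gzmd, Gzmf, Gzmg, Gzmn, Klra5, Klra6, Klra11, Klrb1-ps1, Klrc2, Klrc3 and Klrh1. Of these, 5 lay above the array's median on 1 array each, which was an ND ATDC array for 3 of them. Klra5 stood at 4.58 on ND ATDC replicate 2 and 1.61 on replicate 1, and Klrc3, an NKG2 gene, at 4.20 on replicate 1 and 1.35 on replicate 2. Gzmf stood at 3.77 on replicate 1 and 1.58 on replicate 2. The others were Gzmn, at 2.97 on HFD CD11c+ ATM replicate 1, and Klrc2, at 3.44 on HFD PA replicate 3.

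Among the preadipocytes, ND replicate 1 carried values that the other ND arrays did not. Gzma stood at 5.47 there and at 2.75 and 2.65 on replicates 2 and 3, Nkg7 at 5.22 against 2.09 and 3.70, and Klrd1 at 4.15 against 2.46 and 2.82. Of the 35 genes, 14 lay above the array's median on this array, against 7 and 6 on the others. Il2rb stood at 4.71, 2.35 and 3.18 on the same arrays, and the median over 12 macrophage genes at 5.56, 4.83 and 4.19. The median over 14 dendritic cell genes was 4.26, 3.09 and 2.90, and that over the 7 other NK genes 3.80, 2.64 and 2.52. Those over 10 B cell genes (2.92, 2.98 and 2.53) and 8 neutrophil genes (2.41, 2.17 and 2.70) were not highest on replicate 1. The relation of these markers to the family's values was not tested.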
